A study of Homo sapiens with 6 samples.

Results

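The miR-34 family and the miR-192, miR-194 and miR-215 group were examined as the mature miRNAs best known as targets of the tumour suppressor p53. The members were taken by name from the count files, namely hsa-miR-34a-5p, hsa-miR-34a-3p, hsa-miR-34b-3p, hsa-miR-34b-5p, hsa-miR-34c-5p, hsa-miR-192-5p, hsa-miR-194-5p and hsa-miR-215-5p, which are 8 of the 2588 mature miRNAs listed. They were followed across 6 small RNA libraries from respiratory epithelial cells grown with or without TGF-β1, the cytokine behind the epithelial to mesenchymal transition and fibrosis. There was 1 library per group, so values have no replicate error, no treatment effect was tested, and every interval covers counting error only.

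The A549 groups were untreated cells and cells given TGF-β1 for 48 h, at either 1 or 5 ng/mL. The BEAS-2B groups had the same doses and duration. All 6 groups were labelled wild type and shared the same medium for growth, and the treatment medium was low in serum. A549 is a single lung carcinoma line that keeps wild-type p53. BEAS-2B is a bronchial epithelial line immortalised with a viral T antigen, a protein that binds p53. The lines thus differ in p53 background together with tumour origin, donor and airway site, and these cannot be told apart. p53 itself was not measured in these libraries. The epithelial markers, the miR-200 family with miR-205-5p, summed to 228 to 386 normalised counts in A549 and 325 to 363 in BEAS-2B. miR-200b-3p had the most counts of these in every library, with 139 in the A549 control and 356 in the BEAS-2B control. The others differed in direction between these controls, with miR-200c-3p at 36 and 11 counts, miR-200a-3p at 34 and 73, and miR-429 at 8 and 30. miR-141-3p had no more than 8 counts and miR-205-5p no more than 2 in any library. Markers of multiciliated cells, hepatocytes, blood and muscle each stayed at or below 14 counts in every library. The mesenchymal markers moved with TGF-β1 in both lines, with sums from 161 to 1736 normalised counts in A549 and from 8.46 to 107 in BEAS-2B, lowest in the controls. miR-143-3p and miR-145-5p carried this, while miR-199a-3p had no more than 4 counts and miR-214-3p 0 in any library. Their part in the results below was not tested.

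In the p53 pathway, DNA damage or other stress stabilises p53, which then binds near the promoters of a small set of miRNA genes and raises their transcription. The miR-34 family lowers cell cycle and survival proteins such as CDK6, MET and BCL2, and it also lowers SNAI1, a driver of the epithelial to mesenchymal transition. miR-192 and miR-215 share targets in the cell cycle and the zinc finger proteins ZEB1 and ZEB2, and miR-194 is transcribed together with them. miR-192 is well known in kidney fibrosis, where its response to TGF-β1 has been reported in both directions depending on the cell type.

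The sequences show which members can be expected to share targets, since a miRNA recognises its targets mainly through its seed. Mature sequences were taken from RefSeq on GRCh38.p14 and are written 5′ to 3′ with the seed, bases 2 to 8, in capitals. The set used held 7 of the 8 members and lacked miR-34c-5p, so the seed of miR-34c-5p was not compared with the others. The leading arms of the group on chromosomes 1 and 11 are given first, then the 5p arms of miR-34a and miR-34b.
miR-192-5p: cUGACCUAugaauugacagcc
miR-215-5p: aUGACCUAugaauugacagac
miR-194-5p: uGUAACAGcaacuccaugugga
miR-34a-5p: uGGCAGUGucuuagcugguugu
miR-34b-5p: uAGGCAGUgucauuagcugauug
miR-192-5p and miR-215-5p were identical at 19 of 21 bases, or 90.5%, and differed by C1A and C20A, where the miR-192-5p base comes first and positions are counted from the 5′ end. No other listed miRNA in RefSeq carried their seed. Among the sequences held, miR-34a-5p shared its seed with miR-449a and miR-449b-5p. The seed of miR-34b-5p is shifted by a base and was shared with miR-449c-5p and miR-2682-5p. Whether miR-34c-5p has either seed was not looked at. The miR-449 family is a marker of multiciliated airway cells, and its members had no more than 2 counts in any library. miR-2682-5p had 81, 52 and 69 counts in A549 at 0, 1 and 5 ng/mL, and 19, 8 and 11 in BEAS-2B. Because the end bases set miR-192-5p and miR-215-5p apart, trimmed reads could be counted for either, and how the authors counted such reads is not given in the sources used here.

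In the genome, the members sit at 4 sites, given here from GENCODE release 29 on GRCh38. MIR192 (chr11:64891137-64891246) and MIR194-2 (chr11:64891355-64891439) lie 108 bases apart on the minus strand, in an exon of the long non-coding RNA MIR194-2HG. MIR215 (chr1:220117853-220117962) and MIR194-1 (chr1:220118157-220118241) are also neighbours on the minus strand, in an intron of IARS2, the mitochondrial isoleucyl-tRNA synthetase, which is transcribed from the other strand. The mature miR-194-5p of both hairpins has the same sequence, so its count sums over both sites. MIR34A (chr1:9151668-9151777) lies on the minus strand in an exon of the long non-coding RNA MIR34AHG. MIR34B (chr11:111512938-111513021) and MIR34C (chr11:111513439-111513515) lie 417 bases apart on the plus strand with no other annotated gene across them.

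The libraries held 633318 to 900424 counts each, of which miR-21-5p, the most abundant miRNA, took between 35.4% and 57.2%. Counts were scaled by the trimmed mean of M-values (TMM), and a level is given as a normalised count. Following the study's criteria, a miRNA was taken as changed where the greater normalised data value (ND, the log2 of the normalised count plus 1) of both libraries was at least 8, which is a normalised count of 255, and the fold change was at least 1.4. The limit set by a count of 0 is 3 counts, or 2.31 to 3.49 normalised counts depending on the library. The BEAS-2B control had a TMM factor of 1.32 against 0.829 to 1.02 in the other libraries, and it had the lowest share of miR-21-5p.

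The first question was how abundant the members are in each line. miR-192-5p was the leading member in A549, with 13886, 7408 and 5545 counts at 0, 1 and 5 ng/mL TGF-β1, or 14449, 7438 and 6453 normalised counts. In BEAS-2B it had 331, 189 and 206 counts, or 255, 219 and 202 normalised counts. Every A549 library was far above every BEAS-2B library. miR-194-5p, the partner transcribed with miR-192 and miR-215, had 3521, 2409 and 2213 normalised counts in A549 and 132, 89.1 and 91.2 in BEAS-2B. miR-215-5p, the seed partner of miR-192-5p, had 1188, 547 and 530 normalised counts in A549 against 22.3, 20.8 and 15.7 in BEAS-2B, where it rested on 29, 18 and 16 counts. All 3 values of these members in A549 lay above all 3 in BEAS-2B, and the order within each line was miR-192-5p, miR-194-5p and miR-215-5p at every dose. Together the 3 members made up 2.33% (95% interval 2.30 to 2.37) of the untreated A549 library and 0.0723% of the untreated BEAS-2B library.

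The miR-34 family was scarce in both lines, and only miR-34a-5p and miR-34c-5p were counted well enough for a ratio. miR-34a-5p, the form most often tied to p53, had 106, 70.3 and 47.7 normalised counts in A549, from 102, 70 and 41 reads. The BEAS-2B libraries held 17.7, 35.9 and 49.0 normalised counts of it, from 23, 31 and 50 reads. miR-34c-5p, which comes from the shared miR-34b/c transcript, had 119, 67.3 and 54.7 normalised counts in A549 and 94.6, 57.9 and 117 in BEAS-2B. These rest on 114, 67 and 47 reads in A549 and 123, 50 and 119 in BEAS-2B. For both, the values of the lines overlapped. Neither reached an ND of 8 in any library.

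The remaining members were at or near the floor. miR-34b-3p had 1, 3 and 0 counts in A549 and 6, 2 and 4 in BEAS-2B. miR-34b-5p had 1 count in the BEAS-2B library at 1 ng/mL and 0 elsewhere, and miR-34a-3p had 1 count in the A549 library at 5 ng/mL and 0 elsewhere. No fold is given for these 3 members. The miR-34c hairpin was read almost wholly from its 5p arm, with 1 to 3 counts of miR-34c-3p per library. Although MIR34B and MIR34C lie in the same stretch, miR-34b-3p had 0 to 6 counts where miR-34c-5p had 47 to 123.

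**Figure D1:**
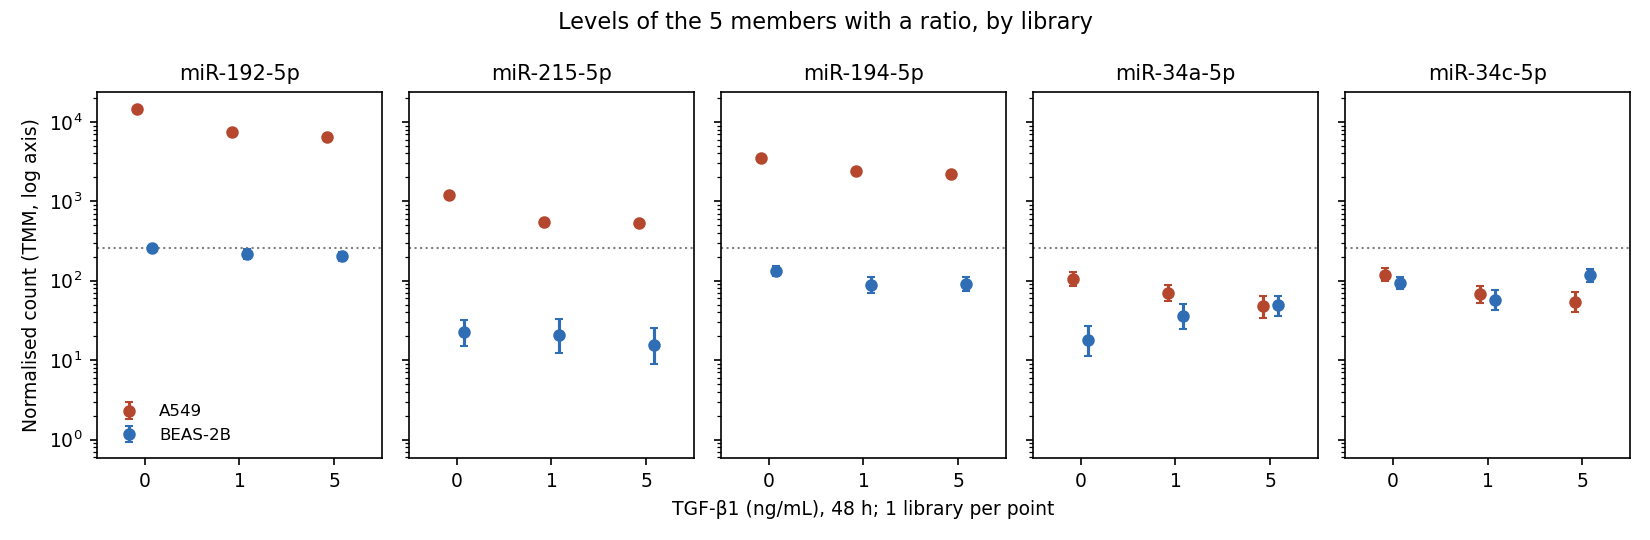
Normalised counts (TMM, log axis) of the 5 members with a ratio, against the dose of TGF-β1 in ng/mL, with 1 library per point. Red is A549 and blue is BEAS-2B, bars are 95% counting intervals, and the dotted line is the ND threshold of 8. miR-192-5p, miR-215-5p and miR-194-5p are higher in A549 at every dose, while miR-34a-5p of the lines meets at 5 ng/mL.

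Between the untreated lines, the largest gap among the members was that of miR-192-5p, which was 56.5-fold higher in A549, a log2 ratio of 5.82 (95% interval 5.67 to 5.99). miR-215-5p was 51.0-fold and miR-194-5p 26.4-fold higher. At 1 ng/mL the folds were 33.8 for miR-192-5p, 25.1 for miR-215-5p and 26.7 for miR-194-5p, and at 5 ng/mL they were 31.8, 31.8 and 24.0. These 3 of the 8 members passed the criteria at each dose, where 68.9% of all miRNAs that met the ND criterion passed between controls, 64.3% between cells at 1 ng/mL and 67.8% between those at 5 ng/mL. They met the ND criterion only through A549, which made a pass likelier, so nothing is read from the count. Over miRNAs with a mean normalised count of at least 10, 32% had all A549 values above all BEAS-2B values, and 3 of the 5 members in that set did. Ranked by the gap between the lowest A549 and the highest BEAS-2B value on the log2 scale, miR-192-5p was the 6th of 397 with 4.66, miR-215-5p the 7th with 4.51 and miR-194-5p the 9th with 4.05.

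The miR-34 members were much closer between the lines. Untreated A549 had 5.73-fold more miR-34a-5p, a log2 ratio of 2.52 (1.92 to 3.31). The lower dose gave 0.95 (0.34 to 1.63) and the higher dose -0.04 (-0.67 to 0.59). A difference between the lines in miR-34a-5p was thus not detectable with 5 ng/mL at this depth. For miR-34c-5p the log2 ratio of A549 to BEAS-2B was 0.32 (-0.05 to 0.71) untreated, 0.21 (-0.33 to 0.78) with the lower dose and -1.08 (-1.61 to -0.59) with the higher dose.

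The next question was what TGF-β1 did to the members in A549. miR-192-5p, miR-215-5p and miR-194-5p fell at both doses. At 1 ng/mL, these 3 of the 8 members passed the criteria, all lower. Among all miRNAs meeting the ND criterion, 48.9% passed in either direction and 21.9% passed as lower. At 5 ng/mL, the 3 passed again, all lower, beside 53.2% in either direction and 26.2% lower. The median log2 ratio of the 3 was -0.96 at 1 ng/mL and -1.16 at 5 ng/mL, against -0.11 and -0.03 over all miRNAs that met the ND criterion. The 2 treated libraries were compared with the same control, so the doses are not independent.

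miR-192-5p fell to 51.5% of its control level with 1 ng/mL TGF-β1 and 44.7% with 5 ng/mL, log2 ratios of -0.96 (-0.999 to -0.92) and -1.16 (-1.21 to -1.12). miR-215-5p fell to 46.1% and 44.6%, with log2 ratios of -1.12 (-1.27 to -0.97) and -1.16 (-1.33 to -1.01). It was the 2nd lowest log2 ratio of the 137 miRNAs tested at 1 ng/mL, and miR-192-5p was the 5th. At 5 ng/mL they were the 10th and 11th lowest of 141. miR-194-5p kept more of its level, at 68.4% and 62.9% of control, with log2 ratios of -0.55 (-0.62 to -0.47) and -0.67 (-0.75 to -0.59). As a sum, the 3 members went from 19159 normalised counts untreated to 10394 with the lower and 9196 with the higher dose.

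The miR-34 members were also lower in treated A549, but below the ND criterion. miR-34a-5p was at 66.5% and 45.5% of control, with log2 ratios of -0.59 (-1.05 to -0.14) and -1.14 (-1.71 to -0.62). miR-34c-5p was at 57.1% and 46.6%, with log2 ratios of -0.81 (-1.28 to -0.37) and -1.10 (-1.64 to -0.61). With the ND criterion replaced by a normalised count of at least 10, all 5 members that met it were at least 1.4-fold lower at both doses, where 19.2% of all miRNAs were so with the lower dose and 25.7% with the higher. Each of these A549 ratios stayed past 1.4-fold under all 5 scalings of the counts.

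**Figure D2:**
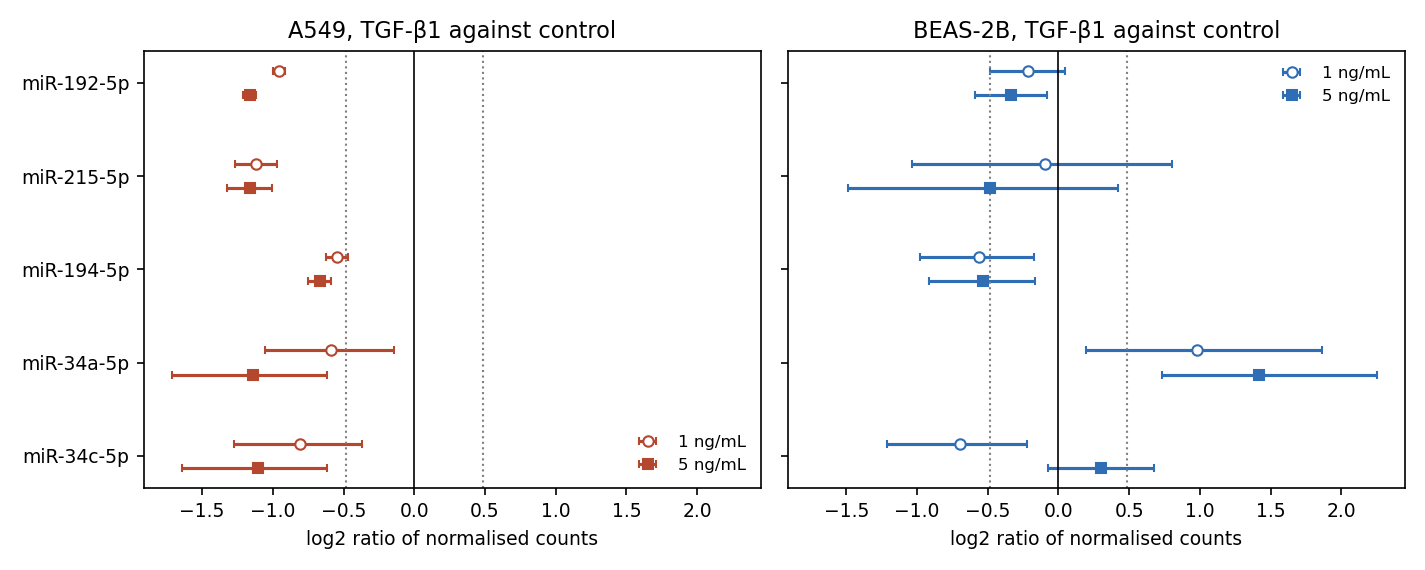
Log2 ratio of normalised counts, TGF-β1 against control, for the 5 members with a ratio in A549 (left) and BEAS-2B (right). Open circles are 1 ng/mL and filled squares 5 ng/mL, bars are 95% counting intervals, and dotted lines mark 1.4-fold. All 10 A549 points lie below 0, and in BEAS-2B miR-34a-5p lies above 0 at both doses.

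In BEAS-2B, 0 of the 8 members passed the criteria at either dose, since none had an ND of 8 or more, although miR-192-5p in the control was just under it. Over all miRNAs that met the ND criterion, 29.2% passed with the lower dose and 36% with the higher. miR-34a-5p had a higher value in both treated libraries than in the control, 1.97-fold with 1 ng/mL TGF-β1 and 2.68-fold with 5 ng/mL. Its log2 ratios were 0.98 (0.20 to 1.87) and 1.42 (0.73 to 2.25), from 31 and 50 counts against 23. Across the 5 scalings, the value for 1 ng/mL lay between 0.57 and 1.02, with an interval clear of 0 in 4 of them. That for 5 ng/mL lay between 1.03 and 1.60, with an interval clear of 0 in all 5. miR-34c-5p had log2 ratios of -0.70 (-1.21 to -0.22) and 0.30 (-0.07 to 0.68) in that order, and the latter turned to -0.11 when libraries were scaled by total count.

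The miR-192 group also stayed under the ND criterion in BEAS-2B, where its ratios rest on few counts. miR-192-5p had log2 ratios of -0.22 (-0.48 to 0.04) and -0.33 (-0.59 to -0.08), and miR-194-5p had -0.56 (-0.98 to -0.17) and -0.53 (-0.92 to -0.16). For miR-215-5p they were -0.09 (-1.03 to 0.80) and -0.48 (-1.49 to 0.42), with intervals on both sides of 0. These values depended on the scaling. Total-count scaling moved the median over all miRNAs in BEAS-2B by -0.43 and -0.41 for the lower and higher dose, and the log2 ratio of miR-192-5p at 5 ng/mL ranged from -0.74 to -0.15 over the scalings.

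The difference between the responses of the lines was then taken for each member, as the A549 log2 ratio minus the BEAS-2B log2 ratio. For miR-34a-5p it was -1.57 (-2.45 to -0.68) for 1 ng/mL TGF-β1 and -2.56 (-3.43 to -1.68) for 5 ng/mL, the 13th largest in size of 397 miRNAs at the higher dose. Its level was lower in both treated A549 libraries and higher in both treated BEAS-2B libraries. This was the case for 1 of the 5 members and for 12.6% of miRNAs with a mean normalised count of at least 10. For miR-192-5p the difference was -0.74 (-1.001 to -0.48) and -0.83 (-1.08 to -0.58). All intervals of these differences leave out the choice of scaling, on which the size depends. Under total counts, the miR-192-5p log2 ratios at 5 ng/mL were -1.01 in A549 and -0.74 in BEAS-2B. With miR-21-5p left out of the totals they were -1.17 and -0.15. For miR-194-5p, whose log2 ratios under TMM were close in both lines, the difference was 0.02 (-0.38 to 0.41) and -0.14 (-0.51 to 0.23). The miR-192-5p difference under TMM lay outside both of these counting intervals. A change of scaling shifts the differences of both miRNAs nearly alike, so the gap between the miRNAs hardly depends on it. How close the miR-194-5p ratios of the lines were does depend on the scaling. Under total counts the miR-194-5p ratios were -0.69 in A549 and -0.99 in BEAS-2B at 1 ng/mL. At 5 ng/mL they were -0.51 and -0.94. For miR-34c-5p the difference under TMM was -0.11 (-0.75 to 0.53) and -1.40 (-2.01 to -0.79). For miR-215-5p it was -1.02 (-1.87 to -0.17) and -0.68 (-1.57 to 0.20).

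**Figure D3:**
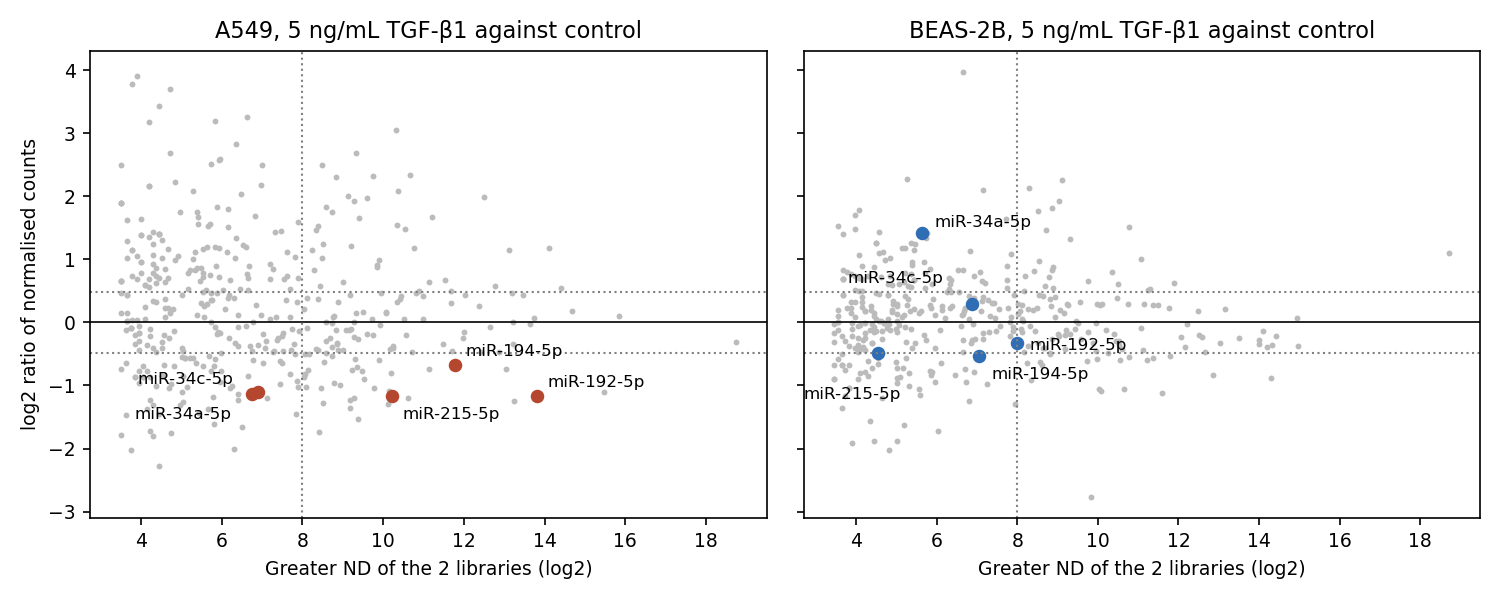
Log2 ratio at 5 ng/mL TGF-β1 against control, plotted against the greater ND of both libraries, for A549 (left) and BEAS-2B (right). Each grey point is a miRNA with a normalised count of at least 10 in either library, coloured points are the members, and dotted lines mark the ND threshold of 8 and 1.4-fold. In A549 the members lie below the lower fold line. In BEAS-2B miR-34a-5p lies above the upper fold line and miR-194-5p, at -0.53, just below the lower one.

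Ratios between members of the same library need no scaling, so their change between libraries does not depend on it. They are ratios of reads, and whether reads of different miRNAs stand for equal amounts was not tested. miR-192-5p made up 92.4%, 93.1% and 92.4% of the summed reads of miR-192-5p and miR-215-5p in A549 at 0, 1 and 5 ng/mL, and 91.9%, 91.3% and 92.8% in BEAS-2B. This share was nearly constant although the level of both differed more than 25-fold between the lines. The hairpins are on different chromosomes. How much of the share comes from reads that could be counted for either miRNA was not tested. Against miR-194-5p, the share of miR-192-5p was not steady. It was 80.4% (79.8 to 81.0) in untreated A549, 75.5% (74.7 to 76.4) with the lower dose and 74.5% (73.5 to 75.4) with the higher, with the treated intervals clear of the control. In BEAS-2B it was 65.8% (61.5 to 69.9), 71.1% (65.2 to 76.4) and 68.9% (63.3 to 74.1), with intervals that overlapped each other. The ratio of miR-192-5p to miR-194-5p thus went from 4.10 in untreated A549 to 3.09 and 2.92 with TGF-β1, and lay between 1.92 and 2.45 in BEAS-2B.

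The other arm of MIR194-2 is shown because it can come from the chromosome 11 site alone, where miR-192 is made, and was looked at after the values above were known.
miR-194-3p: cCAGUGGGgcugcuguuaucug
It had 53, 15 and 15 counts in A549, with log2 ratios of -1.81 (-2.81 to -1.02) for the lower dose and -1.61 (-2.59 to -0.81) for the higher. In BEAS-2B it had 2, 2 and 0 counts. The ratio of miR-194-5p to miR-194-3p was 63.8 in untreated A549, then 160 and 127 with rising dose. The 3p arms of miR-192 and miR-215 had at most 10 and 4 counts in any library.

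miR-34a-5p and miR-34c-5p, also compared after their values were known, kept a steady ratio in A549 but not in BEAS-2B. The share of miR-34a-5p in their summed reads was 47.2%, 51.1% and 46.6% in A549. In BEAS-2B it was 15.8% (10.3 to 22.7) untreated, 38.3% (27.7 to 49.7) with the lower dose and 29.6% (22.8 to 37.1) with the higher. Both treated BEAS-2B intervals lay above the control interval, so miR-34a-5p was higher relative to miR-34c-5p whatever the scaling.

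**Figure D4:**
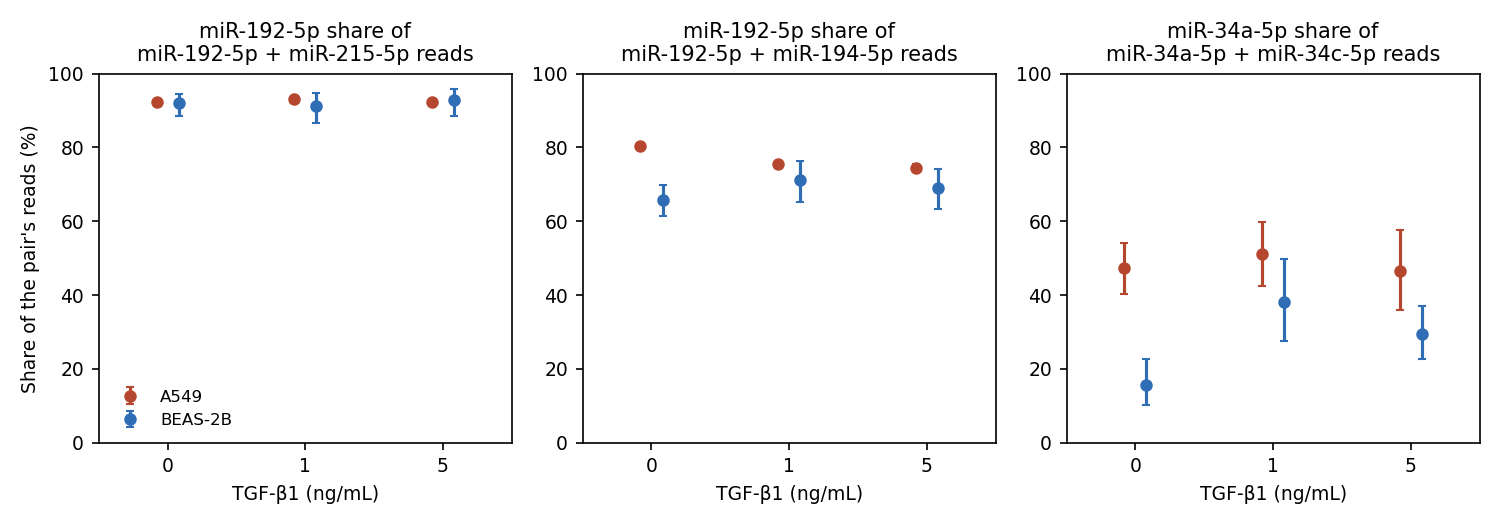
Share of the first miRNA in the summed reads of a pair (%), against the dose of TGF-β1 in ng/mL, with red for A549, blue for BEAS-2B and bars for exact 95% binomial intervals. The share of miR-192-5p beside miR-215-5p stays near 92% in every library, beside miR-194-5p it is lower in treated A549, and that of miR-34a-5p beside miR-34c-5p is lowest in untreated BEAS-2B.

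Between the doses, 0 of the 8 members passed the criteria in either line, where 16.9% of all miRNAs passed in A549 and 6.61% in BEAS-2B. In A549, the log2 ratio of 5 against 1 ng/mL was -0.20 (-0.26 to -0.15) for miR-192-5p, -0.05 (-0.23 to 0.13) for miR-215-5p and -0.12 (-0.21 to -0.03) for miR-194-5p. All 3 took the opposite sign under total-count scaling, at 0.09, 0.25 and 0.17. miR-34a-5p had -0.55 (-1.15 to 0.02) in A549 and 0.44 (-0.23 to 1.15) in BEAS-2B. miR-34c-5p in BEAS-2B was 2.00-fold higher at 5 than at 1 ng/mL, a log2 ratio of 1.00 (0.52 to 1.52), with its value at 1 ng/mL the low one of the 3.

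The miRNAs most like each member in pattern were found by the root mean square difference (RMS) of their ND values over the 6 libraries after each miRNA's own mean was taken off, among 222 candidates. The closest to miR-192-5p was miR-215-5p, with an RMS of 0.14 on the log2 scale, then miR-194-5p with 0.36 and miR-9-5p with 0.43, where the median candidate had 2.63. miR-194-5p had miR-215-5p, miR-192-5p and miR-615-3p as its nearest, at 0.31, 0.36 and 0.41. For miR-34a-5p the nearest were miR-378c (0.35), miR-148b-3p (0.38) and miR-378a-3p (0.44), with a median of 0.91. For miR-34c-5p they were miR-30b-5p (0.25), miR-140-3p (0.26) and miR-30e-5p (0.27), with a median of 0.70. These distances describe 6 libraries of 2 lines and carry no test. They include the difference between the lines and do not single out the response to TGF-β1. Mean ND in A549 minus that in BEAS-2B was 5.30 for miR-192-5p, 5.10 for miR-215-5p, 4.68 for miR-194-5p and 5.66 for miR-9-5p. Reads that could be counted for either miR-192-5p or miR-215-5p were not set apart.

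Another 11 miRNAs described as raised or processed with the help of p53 did not share 1 direction. In A549 at 1 ng/mL, 4 of the 5 that met the ND criterion passed, beside 48.9% of all miRNAs, with miR-107 lower at -0.62 and miR-143-3p, miR-22-3p and miR-1246 higher at 3.43, 0.80 and 0.94 on the log2 scale. At 5 ng/mL, 3 of 5 passed, beside 53.2%, with miR-107 at -0.58, miR-143-3p at 3.05 and miR-1246 at 1.55. In BEAS-2B, 2 of 4 passed at 1 ng/mL, beside 29.2%, with miR-16-5p at -0.66 and miR-1246 at 0.61. At 5 ng/mL 1 of 4 passed, beside 36%, with miR-1246 at 0.72. With 4 or 5 miRNAs that could pass, nothing particular to the list is read from these counts. miR-143-3p is also a mesenchymal marker, and miR-1246 can arise from a small nuclear RNA fragment. miR-145-5p, made with miR-143, had 5, 70 and 48 counts in A549 and 0, 5 and 5 in BEAS-2B.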

How the data were processed

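Per the labels, total RNA of A549 and BEAS-2B cells was made into small RNA libraries, 1 for each line and dose, and nothing says that they came from separate cultures. The deposited values were raw counts of reads per mature miRNA, with no normalisation. The submitters' processing notes name Bowtie2 and bedtools without a version. The genome build, the miRNA annotation, the treatment of reads that match several miRNAs and the use of strand are not given in the sources used here. No molecular identifiers were mentioned, so reads are not independent molecules, and intervals and floors cover counting error only.

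Counts were scaled by TMM over the 6 libraries with edgeR 4.0.16 in R 4.3.3, then brought to a common size of 749498, the mean effective library. A log2 ratio is the difference of log2(normalised count + 1). Its 95% interval was derived from the exact binomial (Clopper-Pearson) interval of 1 count in the sum of both, allowing for library sizes. Shares have the same kind of interval, and a difference between lines has an interval from the normal approximation to log counts. With 1 library per group no p-value was computed, and no fit with doses or lines as replicates was run. The study's criteria (ND 8 or more, fold 1.4 or more) were applied to the greater ND of the libraries compared, a choice made here. The formula for ND was also set here, since the study gives none. Alternatives were DESeq2 1.42.0 size factors, total counts with and without miR-21-5p, TMM within a line, pseudocounts of 0.5 and 10 in place of 1, and other filters and folds. Calculations used scipy 1.17.1, pandas 2.3.3 and numpy 2.4.6 under Python 3.11.15, and the ratio and interval were tested on simulated counts.

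The miRNAs named are the members, the other arms of their hairpins, miRNAs with the seed of a member, 11 others linked to p53, the 3 nearest in pattern for each member with a mean normalised count of at least 50, and miR-21-5p. Members, lists and criteria were chosen with earlier results of these data known. The pairs miR-34a-5p with miR-34c-5p and miR-194-5p with miR-194-3p, and the count of opposite responses, were added after values were seen.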

Additional observations from a re-analysis of the deposited data

Results flagged for a closer look

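miR-34a-5p is given here because every treated A549 library had less of it than the A549 control, while every treated BEAS-2B library had more than the BEAS-2B control. This pattern of signs was shared by 50 of 397 miRNAs with a mean normalised count of at least 10, or 12.6%, and 24.4% went opposite ways in the lines at both doses in either order. The log2 ratio in A549 minus that in BEAS-2B was -2.56 at 5 ng/mL. With 1 library per group the difference was not tested, and both doses of a line share a control. The value rests on 102 and 41 counts in A549 and on 23 and 50 in BEAS-2B.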

How the results depend on the processing

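No paired analysis was possible because each group held 1 library and the labels gave no replicate numbers shared between groups. Of 255 alternative log2 ratios of the members, 230 lay within the interval of the value reported and 25 outside it. None of the members past the criteria reversed. In all, 8 took another sign, each of a ratio that was not past the criteria. They include miR-34c-5p in BEAS-2B at 5 ng/mL (-0.11) and, between the lines, in controls (-0.21) and at 1 ng/mL (-0.03) under total counts, and the A549 dose ratios given above. The other 2 were BEAS-2B dose ratios, of miR-192-5p at 0.02 without miR-21-5p and of miR-194-5p at -0.01 under DESeq2 size factors.

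The number of members past the criteria turned on the filter on low values. With a normalised count of at least 10, it went from 3 to 5 in A549 at both doses, from 0 to 3 and from 0 to 2 in BEAS-2B with the lower and higher dose, and from 0 to 1 between the doses in each line. With no filter it was 6 and 7 in A549, 5 and 2 in BEAS-2B, 3 between the doses in each line, and 5, 5 and 6 between the lines at 0, 1 and 5 ng/mL. An ND of at least 7 added miR-194-5p, 1 member, in BEAS-2B at each dose, and total counts added miR-192-5p, 1 member, at each dose. At a fold of at least 2, 1 member (miR-215-5p) was left in A549 at 1 ng/mL. The count of 3 members higher in A549 without overlap was 3 under every alternative run.

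Counts over all miRNAs moved by more than 1.5 times as follows, in the order A549 at 1 and 5 ng/mL, BEAS-2B at 1 and 5 ng/mL, 5 against 1 ng/mL in A549 and BEAS-2B, and A549 against BEAS-2B at 0, 1 and 5 ng/mL. The counts reported were 67, 75, 35, 45, 22, 8, 93, 92 and 99. At a fold of at least 2 they were 21, 42, 13, 15, 0, 2, 55, 55 and 60. With a normalised count of at least 10 they were 206, 265, 170, 176, 155, 96, 306, 316 and 331, and with no filter 785, 861, 752, 766, 720, 672, 920, 908 and 927. Total counts gave 70 and 79 in BEAS-2B and 40 between the doses in A549. Total counts without miR-21-5p gave 13 between the doses in BEAS-2B, and an ND of at least 7 gave 40 and 16 between the doses.

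At this depth 3 of the 5 miR-34 members had too few counts for a ratio, and none of the 5 passed 123 counts in a library. In BEAS-2B, miR-215-5p rested on 29, 18 and 16 counts.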
